A study of Equus caballus with 8 samples.

Results

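The EGF family ligands and ERBB receptors were described in RNA from the endometrium, the lining of the uterus, of 4 mares, each sampled at Day 12 both when pregnant and when cycling. The list named 10 genes, 6 ligands (EGF, HBEGF, AREG, EREG, TGFA and BTC) and 4 receptors (EGFR, ERBB2, ERBB3 and ERBB4), which were looked up by horse NCBI Gene ID among the 24942 IDs of the count table. Of the 10, 9 were found. EGF had no matching ID and was not analysed here. Of the 9, 7 passed the filter on low counts and were tested, and EREG and ERBB4 did not pass it.

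Each mare gave 1 biopsy in each state, in random order, so that 4 pregnant and 4 cyclic (control) libraries form 4 pairs. All were normal cycling Bavarian Warmblood mares of unstated age, 1500 IU of human chorionic gonadotropin was given to induce ovulation, and the treatment text gives artificial insemination for all mares without setting the control cycles apart. Both kinds of biopsy were taken after the uterus had been flushed, and pregnancy had been established by ultrasound before the flush. A biopsy holds epithelium, glands, stroma, vessels and immune cells together, so fewer cells of a type and less RNA per cell cannot be told apart.

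EGF family ligands are made as membrane-anchored precursors, are cut loose by ADAM proteases and bind receptor tyrosine kinases of the ERBB family. A bound receptor pairs with another, and the pair signals through the RAS, RAF, MEK and ERK chain and through PI3 kinase and AKT. In the mouse uterus, heparin-binding EGF-like growth factor appears in the luminal epithelium beside the blastocyst, and amphiregulin responds to progesterone.

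Total counts ran from 15.5 to 16.5 M in the cyclic and from 9.81 to 16.7 M in the pregnant libraries, the pregnant library of mare 1 being the shallowest. Levels are CPM, read counts relative to the library's total, with TMM (trimmed mean of M values) scaling. They are not compared between genes, because transcript lengths were not used. Where no read was counted, counting error alone leaves room for 3 counts. That limit was 0.306 CPM in the shallowest library and between 0.18 and 0.194 CPM elsewhere. The comparison of states used edgeR's quasi-likelihood test with the mare as a block and Benjamini-Hochberg adjustment over 15342 genes. A gene is said to have risen or fallen where the adjusted p was below 0.05, and ± after a log2 fold change is the standard error. By this rule 16.7% of all genes tested changed, 8.53% higher and 8.19% lower in pregnancy.

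The tissue label was checked on marker genes. The gland product P19 was present in every library at 32828 CPM or more, and EPCAM, an epithelial surface protein, at 466 CPM or more. All 6 gland markers had estimates below 0 and 0 were called (1 faller in each other tool). Their sum, mostly P19, was 39460 to 64044 CPM when cyclic and 34019 to 44595 CPM when pregnant. P19 was lower in 4 of 4 mares (log2 fold change -0.32 ± 0.11, adjusted p = 0.087). The 12 epithelial markers found summed to 2167 to 2634 CPM when cyclic and 2016 to 2370 CPM when pregnant, with 0 risers and 2 fallers (1 higher and 3 lower at an unadjusted p under 0.05, and 1 riser and 2 fallers by DESeq2 and by limma-voom). The 10 endothelial markers all rose, and their sum went from 429 to 597 CPM in the cycle to 780 to 1283 CPM in pregnancy. Of 6 smooth muscle markers 3 rose, with sums of 145 to 308 CPM and 295 to 516 CPM, and of 10 immune markers 3 rose, with sums of 121 to 199.6 CPM and 158 to 207 CPM. Of 9 stromal markers 5 rose (DPT 2.09-fold, VIM, DCN, THY1 and HAND2). The stromal sum, 3055 to 4663 CPM and 3825 to 4252 CPM, is mostly COL1A1 and COL1A2, which did not pass the test. No marker of these 3 lists fell (0 lower at an unadjusted p under 0.05, and 0 in each other tool). Of the conceptus markers, CDX2, AFP and LIN28A had 0 counts in all 8 libraries and CYP19A1 at most 1 count. The 2 others were detected in every library and missed the threshold, ELF5 at 2.92 ± 1.09 CPM when cyclic and 4.66 ± 2.41 CPM when pregnant (higher in 2 of 4 mares, adjusted p = 0.244) and POU5F1 at 5.09 ± 1.27 and 7.01 ± 2.50 CPM (higher in 4 of 4 mares, adjusted p = 0.0918). The blood marker ALAS2 had 0 counts in all 8. The part of these cell types in the results below was not tested.

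The question put to the receptors was whether their transcripts differ when a conceptus is present. ERBB2, the receptor that binds no known ligand and serves as the preferred partner of the others, was the 1 member of the 7 tested that rose in pregnancy, and 0 fell. The called share of the members, 14.3%, was no larger than the 16.7% of all genes tested. Risers alone made up 8.53% of all genes tested. EGFR, which binds most ligands of the family, and ERBB3, whose kinase is impaired and which binds neuregulins, did not pass the test. ERBB4, the other neuregulin receptor, was close to the limit of detection.

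ERBB2 (Gene ID 100054739) had 282, 258, 280.5 and 236 CPM in the cyclic libraries of mares 1 to 4 and 406, 302, 324 and 277 CPM in their pregnant libraries. It was higher in pregnancy in 4 of 4 mares, most in mare 1, while the groups overlap, since the pregnant value of mare 4 lies within the cyclic range. The mean was 264 ± 21.8 CPM when cyclic and 327 ± 56 CPM when pregnant (SD, n = 4), a 1.23-fold rise (log2 fold change 0.30 ± 0.08, adjusted p = 0.0372). The call rests on all 4 pairs: the adjusted p was 0.196 without mare 1, 0.0608 without mare 2, 0.0675 without mare 3 and 0.0683 without mare 4, with the fold change kept at 0.22 to 0.32 on the log2 scale. It was also lost without the mare as replicate block (adjusted p = 0.24) and under edgeR's likelihood ratio test (0.11), whereas DESeq2 gave 0.00887 and limma-voom 0.0383.

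EGFR (100067755) had 52.6, 42.2, 40.6 and 32.5 CPM in the cyclic libraries of mares 1 to 4 and 46.4, 30.8, 37.7 and 32.7 CPM in their pregnant libraries. It was lower in pregnancy in 3 of 4 mares and the groups overlap almost wholly (log2 fold change -0.18 ± 0.09, adjusted p = 0.191). Mare 1 was highest in both states. ERBB3 (100059216) had 412, 391, 402 and 437 CPM when cyclic and 406, 336, 372 and 434 CPM when pregnant. It was lower in 4 of 4 mares, by little in mares 1 and 4 (log2 fold change -0.09 ± 0.08, adjusted p = 0.475). ERBB4 (100050182) had 0, 1, 1 and 0 counts in the cyclic libraries and 1, 4, 6 and 1 counts in the pregnant libraries. The pregnant libraries of mares 2 and 3 were the 2 above 3 counts, and ERBB4 was not called when the filter was dropped (adjusted p = 0.187).

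**Figure D1:**
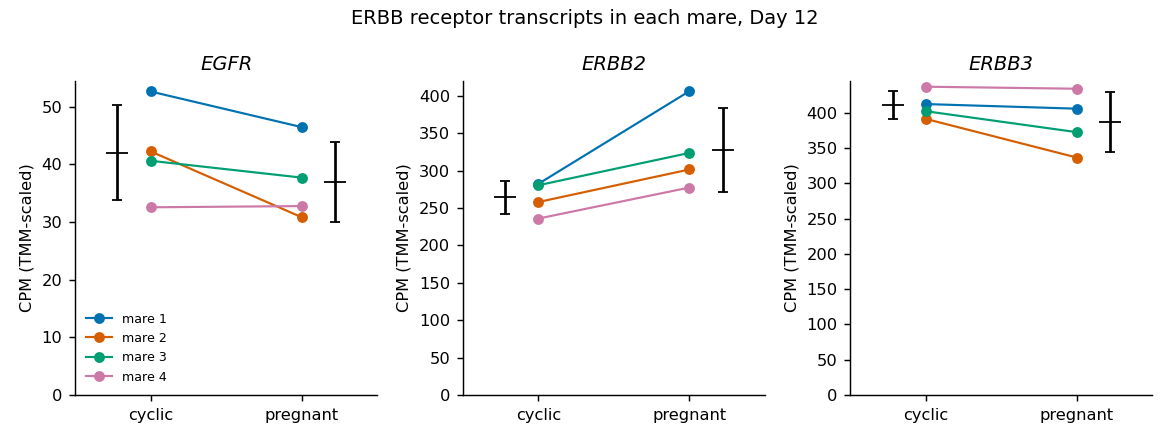
Levels of EGFR, ERBB2 and ERBB3 in CPM (TMM-scaled, axes from 0) in the cyclic and pregnant library of each mare, joined by a line; black bars are the mean ± SD of 4 libraries. All 4 ERBB2 lines go up, to 277 to 406 CPM, all 4 ERBB3 lines go down, and 3 of the 4 EGFR lines go down.

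Because ERBB2 was higher while its partner receptors were not, the receptors were also set against each other within each library, which no scaling between libraries can change. This measure was chosen after the values had been seen. The ratio of ERBB2 to EGFR counts was 5.36, 6.11, 6.91 and 7.25 in the cyclic libraries of mares 1 to 4 and 8.75, 9.79, 8.59 and 8.47 in their pregnant libraries. The ratio was thus higher in pregnancy in 4 of 4 mares, and its 2 ranges do not overlap. Its mean change was 0.48 on the log2 scale (SD 0.25, n = 4 mares), or 1.4-fold, and 0.41 to 0.57 with any 1 mare left out. The ratio of ERBB2 to ERBB3 went from 0.645 ± 0.072 to 0.852 ± 0.153 (SD, n = 4) and was higher in 4 of 4 mares. Its ranges overlap, at 0.540 to 0.698 when cyclic and 0.639 to 1.00 when pregnant. The ratio of EGFR to ERBB3 was higher in 2 of 4 mares. In a two-sided exact permutation test of signs over the 4 mares, p was 0.125 for both ERBB2 ratios, the smallest that 4 pairs allow, and 0.5 for EGFR to ERBB3 (0.188, 0.188 and 0.5 adjusted over the 3 ratios). The ratios restate the levels that prompted them, and with 4 pairs the test cannot pass 0.05, so they are given as a description.

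**Figure D2:**
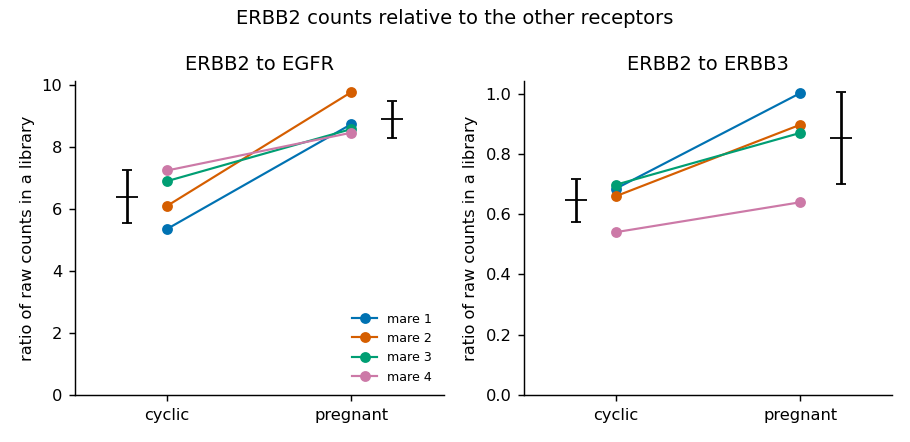
Ratio of raw ERBB2 counts to EGFR counts (left) and to ERBB3 counts (right) in each library, with lines joining the libraries of a mare and black bars for the mean ± SD of 4; axes start at 0. The ERBB2 to EGFR ratio lies at 5.36 to 7.25 in the cycle and at 8.47 to 9.79 in pregnancy.

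Among the ligands, 0 of the 4 tested changed (1 at an unadjusted p under 0.05, AREG; 0 by DESeq2 and by limma-voom; 1, AREG, by the likelihood ratio test). AREG (100050528), amphiregulin, a ligand of EGFR, had 0.515, 1.26, 1.30 and 0.558 CPM in the cyclic libraries of mares 1 to 4 and 2.19, 2.71, 0.9 and 2.25 CPM in their pregnant libraries. It was higher in pregnancy in mares 1, 2 and 4 and lower in mare 3. The counts behind these values were 8 to 21 in the cycle and 16 to 42 in pregnancy. The log2 fold change of AREG, 1.10 ± 0.42, was the largest of the 7 members and missed the threshold (adjusted p = 0.110). Without mare 3 it was 1.63 with an adjusted p of 0.0168, and over the alternatives the adjusted p ran from 0.0168 to 0.316.

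HBEGF (100629956), heparin-binding EGF-like growth factor, a ligand of EGFR and ERBB4, had 2.58, 11.9, 7.20 and 2.04 CPM in the cyclic libraries of mares 1 to 4 and 3.98, 10.7, 3.99 and 7.16 CPM in their pregnant libraries. It was higher in pregnancy in mares 1 and 4 and lower in mares 2 and 3, so the states overlap wholly (log2 fold change 0.26 ± 0.45, adjusted p = 0.753). Without mare 4 the sign turned (log2 fold change -0.20, adjusted p = 0.671). TGFA (100060423), transforming growth factor alpha, had 10.4, 17.2, 14.5 and 12.9 CPM when cyclic and 10.9, 8.44, 9.39 and 13.3 CPM when pregnant. It was lower in mares 2 and 3 and slightly higher in mares 1 and 4 (log2 fold change -0.39 ± 0.19, adjusted p = 0.210).

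BTC (100056845), betacellulin, which binds EGFR and ERBB4, had 3.67, 5.03, 3.10 and 4.46 CPM when cyclic and 2.68, 3.09, 3.37 and 4.32 CPM when pregnant. It was lower in 3 of 4 mares (log2 fold change -0.26 ± 0.19, adjusted p = 0.403). EREG (100056605), epiregulin, had 2 counts in the cyclic library of mare 3, 1 count in the pregnant library of mare 2 and 0 counts in the other 6 libraries, all within what a count of 0 allows. The ranges of the 2 states overlapped for all 7 tested members, while they did not overlap for 10.7% of all genes tested.

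**Figure D3:**
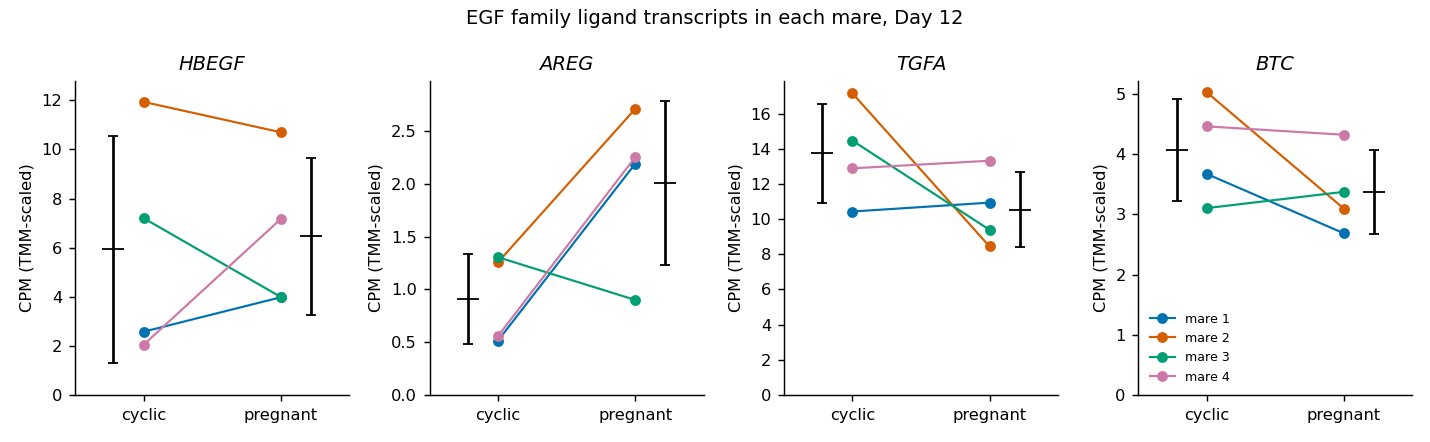
Levels of HBEGF, AREG, TGFA and BTC in CPM (TMM-scaled, axes from 0) in the cyclic and pregnant library of each mare, joined by a line, with the mean ± SD of 4 libraries in black. AREG goes up in 3 mares and down in mare 3, and HBEGF goes up in mares 1 and 4 and down in mares 2 and 3.

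The spread of HBEGF between libraries ran in part beside that of the immediate early genes, transcription factor genes that switch on within minutes of a stimulus. FOS had 66.5, 1313, 1649 and 73.1 CPM in the cyclic libraries of mares 1 to 4 and 71.8, 1014, 495 and 1356 CPM in their pregnant libraries. EGR1 and JUNB were also low in the cyclic libraries of mares 1 and 4 and in the pregnant library of mare 1, at 79.8 to 318 CPM for EGR1 and 59.4 to 80.04 CPM for JUNB, against 564 to 1950.1 and 198 to 681 CPM in the other 5. HBEGF was at 2.04 to 3.98 CPM in the same 3 libraries and at 3.99 to 11.9 CPM in the other 5. AREG shared the low values of the cyclic libraries of mares 1 and 4 but not that of the pregnant library of mare 1. The part of this variation between libraries in the results for HBEGF and AREG was not tested.

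**Figure D4:**
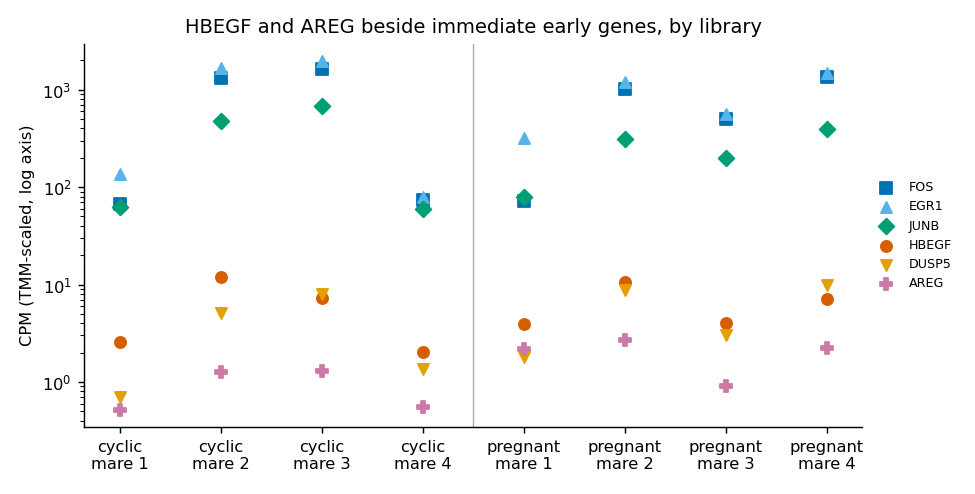
Levels in CPM (TMM-scaled, log axis) of HBEGF, AREG and 4 early response genes (FOS, EGR1, JUNB and DUSP5) in each of the 8 libraries, 1 point per gene and library. FOS lies at 66.5 to 73.1 CPM in the cyclic libraries of mares 1 and 4 and the pregnant library of mare 1. HBEGF lies at 2.04 to 3.98 CPM there, and at 3.99 CPM in the pregnant library of mare 3.

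The same fit also tested its 3 mare terms jointly, for differences from mare to mare. Of the 7 members, 1 differed between mares, EGFR (adjusted p = 0.038), against 15.9% of all genes tested. EGFR was highest in mare 1 in both states. On simulated data this test made more false calls than its threshold implies, and the call was lost without TMM, in limma-voom, and without mare 1 or 4.

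The 2 members with the smallest p were set against all named genes with a mean of at least 1 CPM (12726 genes) to find the most similar patterns over the 8 libraries. These libraries come from 4 mares in 2 states, so the correlations describe shared state, mare and library together. Closest to ERBB2 were RASL11B, a small GTPase of the RAS superfamily (Pearson's r = 0.988), the lens crystallin gene CRYBB3 (0.982) and CYB5R3, a cytochrome b5 reductase (0.973). Closest to AREG were NFKBIA, the inhibitor of NF-kappa-B (r = 0.968), OSTF1 (0.965) and MFSD2A, a transporter of lysophospholipids (0.962). Of these 6, RASL11B (log2 fold change 0.57 ± 0.13, adjusted p = 0.0145) and CRYBB3 (0.86 ± 0.22, adjusted p = 0.029) rose in pregnancy. Both were picked for following ERBB2, itself a riser, in the same libraries, so their calls restate that pattern.

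Around the members, lists for 6 roles in the pathway held 101 genes, of which 95 were tested. In all, 16 rose and 11 fell, which is 28.4% against 16.7% of all genes tested, and the median log2 fold change was 0.08 against 0.00 for all genes. The excess over all genes rested on mares 1 and 4. Without mare 1, 7 pathway genes changed, or 7.37% against 8.23% of all genes, and without mare 4, 14 changed, or 14.7% against 13.4%. Without the replicate block 5 changed, or 5.26% against 2.54%. The other EGF family ligands, which bind ERBB3 or ERBB4 except epigen, a ligand of EGFR, showed 0 changes among the 2 tested (0 at an unadjusted p under 0.05, and 0 in each other tool). NRG2, neuregulin 2, averaged 7.53 ± 1.47 CPM in cyclic and 8.59 ± 2.29 CPM in pregnant libraries (adjusted p = 0.514), and NRG4 4.18 ± 0.411 and 3.46 ± 0.677 CPM (adjusted p = 0.353). NRG1, NRG3 and EPGN were below the filter. NRG1 stood at 2 to 11 counts in 7 libraries and at 84 counts, or 5.41 CPM, in the pregnant library of mare 2.

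Of 9 genes of ligand shedding and maturation, 1 rose and 1 fell (22.2% called, against 16.7% of all genes tested). ADAM10, the protease that releases EGF and betacellulin in mouse cells, had 110.1, 194, 123 and 173 CPM in the cyclic libraries of mares 1 to 4 and 94.2, 122, 96.6 and 132 CPM in their pregnant libraries. It was lower in pregnancy in 4 of 4 mares (log2 fold change -0.41 ± 0.08, adjusted p = 0.00936; 0.282 without the replicate block). ADAM17, the protease that releases amphiregulin, HBEGF and TGF alpha, had 32.5 ± 3.21 and 32.0 ± 2.34 CPM (adjusted p = 0.899). TIMP3, an inhibitor of ADAM17, rose 1.29-fold (adjusted p = 0.0238), a call lost without mare 1, 3 or 4 and without the block (adjusted p up to 0.233).

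Of 10 membrane proteins that bind the ligands or receptors, 4 rose and 0 fell (5 higher and 0 lower at an unadjusted p under 0.05; 0 fell in each other tool). Without mare 1 the count of risers was 1, without mare 4 it was 2, and without the block 1. Of all genes, 653 of 15379 rose without mare 1, 1050 of 15319 without mare 4 and 268 of 15342 without the block. CD44, a hyaluronan receptor that can carry HBEGF, averaged 40.9 ± 8.83 CPM in cyclic and 75.4 ± 12.3 CPM in pregnant libraries (1.86-fold, adjusted p = 0.0383), higher in 4 of 4 mares and without overlap. CAV1, the caveolar coat protein, rose 1.53-fold, the mucin MUC1 1.58-fold and the heparan sulphate proteoglycan SDC4 1.25-fold (adjusted p 0.0165, 0.0194 and 0.0496). CAV1 is abundant in endothelium, whose markers rose in this comparison. The call of CD44 was lost without the low-count filter and without mare 1 or 2 (adjusted p up to 0.174), that of CAV1 without mare 1 and without the block (up to 0.209), that of MUC1 without mare 4 and without the block (up to 0.271), and SDC4 passed in 5 of 12 alternatives.

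Of 17 genes listed under inhibition of the receptors and their degradation, 1 rose and 4 fell. The list includes LRIG2 and LRIG3, whose action on the receptors was not tested. The called share was 29.4%, against 16.7% of all genes tested (8.53% rose and 8.19% fell). With 1 mare left out, 0 to 3 rose and 1 to 3 fell, and without the replicate block 0 changed. Of all genes, 8.23% to 13.4% changed with 1 mare left out and 2.54% without the block. LRIG2, a membrane protein of the LRIG family, had 49.4, 45.4, 50.6 and 30.0 CPM in the cyclic libraries of mares 1 to 4 and 36.7, 28.8, 24.6 and 24.4 CPM in their pregnant libraries. It was lower in pregnancy in 4 of 4 mares (log2 fold change -0.61 ± 0.12, adjusted p = 0.00901; 0.115 without the replicate block). LRIG3 went the other way, from 34.0 ± 3.77 to 43.2 ± 3.45 CPM (adjusted p = 0.0126; lost without mare 2 and without the block, up to 0.122). SOCS4, a SOCS box protein that acts on EGFR, and CBL, the ubiquitin ligase that marks EGFR for degradation, fell by 0.54 and 0.40 on the log2 scale (adjusted p 0.0328 and 0.0431), passing in 7 and 5 of 12 alternatives. The remaining faller, named after its value was seen, was LRIG1, which promotes degradation of ERBB receptors, at 429.6 ± 62.1 CPM in cyclic and 339 ± 17.1 CPM in pregnant libraries (adjusted p = 0.0454, passing in 5 of 12 alternatives). ERRFI1, a feedback inhibitor that binds the ERBB kinases, was likewise picked out after its value was seen. It had 73.2, 91.8, 109 and 46.9 CPM when cyclic and 265, 193, 134 and 159 CPM when pregnant. It missed the threshold (log2 fold change 1.24 ± 0.33, adjusted p = 0.0979). Its ranges did not overlap, which held for 10.7% of all genes tested.

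Of 37 adaptors and signal transducers, 3 rose and 6 fell, and all 9 changes were under 1.5-fold. The called share was 24.3%, against 16.7% of all genes tested (8.53% rose and 8.19% fell). Without mare 1 and without the block 0 of the 37 changed, and 4, 4 and 1 changed without mare 2, 3 and 4. Of all genes, 8.23%, 12.0%, 12.1% and 13.4% changed without mare 1, 2, 3 and 4, and 2.54% without the block. ERBIN, a scaffold that binds ERBB2, fell by 0.30 on the log2 scale from 89.4 ± 10.0 to 72.4 ± 7.76 CPM (adjusted p = 0.011). MAPK3, the ERK1 kinase, rose 1.21-fold (adjusted p = 0.0148) and GAB2, a docking protein, 1.24-fold (adjusted p = 0.0225). These 3 calls were lost without mare 1 and without the block. That of GAB2 was also lost without mare 3 or 4, and that of MAPK3 without mare 4, the highest adjusted p being 0.174 for ERBIN, 0.159 for MAPK3 and 0.406 for GAB2.

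The list of ERK feedback and target genes held the largest changes. Of 20 tested, 7 rose and 0 fell (11 higher and 0 lower at an unadjusted p under 0.05; 9, 10 and 10 risers and 0 fallers in DESeq2, in limma-voom and with the likelihood ratio test). The called share was 35.0%, against 16.7% of all genes tested (8.53% rose and 8.19% fell). Risers numbered 3 without mare 1 and 4 without the block, and 0 genes of the list fell in either. Of all genes, 653 of 15379 rose without mare 1 and 268 of 15342 without the block. The 20 had a median log2 fold change of 0.62, against 0.00 for all genes tested. Like the other lists, this one was chosen with earlier results of these data known, so its shares are given as a description. Estimates above 0 numbered 20 of 20 (19 without mare 1, 17 without mare 4 and 17 without the block), against 7794 of 15342 for all genes. FOS, EGR1 and JUNB are among the 20, though each was lower in 2 of 4 mares and had a lower mean CPM in pregnancy. SPRY2, a Sprouty inhibitor of the RAS and ERK chain, had 6.95, 5.03, 7.39 and 4.21 CPM in the cyclic libraries of mares 1 to 4 and 14.6, 14.4, 16.0 and 11.1 CPM in their pregnant libraries. Each pregnant value was above each cyclic value (2.41-fold, log2 fold change 1.27 ± 0.12, adjusted p = 4.77e-04), and the call held in 12 of 12 alternatives (adjusted p up to 0.0244).

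SPRY4, a second Sprouty gene, had 2.00, 3.52, 2.61 and 2.42 CPM when cyclic and 5.77, 4.83, 5.29 and 5.57 CPM when pregnant, again without overlap. It rose 2.04-fold (adjusted p = 0.00883; 0.0528 without mare 1). SPRED2, a Sprouty-related inhibitor, rose from 45.1 ± 8.90 to 66.6 ± 2.30 CPM without overlap (adjusted p = 0.00415; 0.0507 without the replicate block). PHLDA1, an ERK-responsive gene, rose 1.74-fold (adjusted p = 0.01), a call lost without mare 1 and without the block (up to 0.218). The remaining risers, named after their values were seen, were SPRY1 (1.55-fold) and the ETS factors ETV1 (2.31-fold) and ETV4. ETV4 had 0 to 11 counts in the cyclic and 23 to 90 counts in the pregnant libraries. Sprouty, SPRED, ETV and DUSP genes respond to other receptor tyrosine kinases as well. Whether signalling by any receptor or a different mix of cells stood behind these values was not tested. All 10 endothelial markers rose in the same comparison. FOS, EGR1 and JUNB belong to the same list and did not pass (adjusted p 0.924, 0.831 and 0.969). DUSP4, an ERK phosphatase, was picked out after its value was seen and was not called (adjusted p = 0.199). It had 0.129, 0.943, 2.61 and 0.124 CPM when cyclic and 17.3, 11, 2.92 and 11 CPM when pregnant, without overlap. Ranges did not overlap for 10.7% of all genes tested. In the cycle DUSP4 was lowest in mares 1 and 4, as was FOS, while in pregnancy mare 1 was highest for DUSP4 and lowest for FOS. The part of this variation between libraries in the DUSP4 values was not tested.

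**Figure D5:**
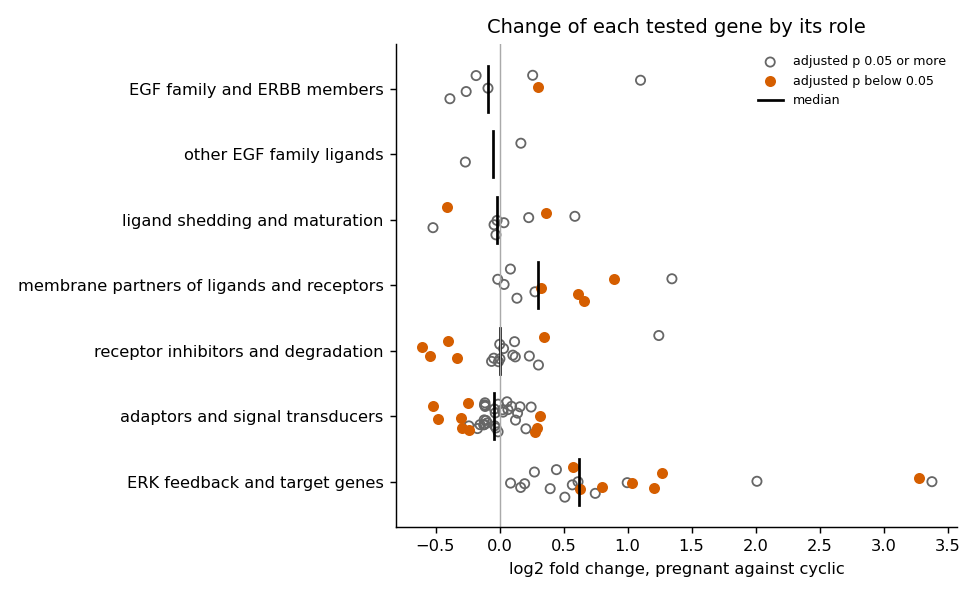
Log2 fold change of pregnant against cyclic for every tested gene, 1 point per gene, for the members and the 6 pathway lists; filled points have an adjusted p below 0.05 and black bars are list medians. In the ERK feedback and target list all 20 points lie above 0 and 7 are filled, while 1 of the 7 members, ERBB2, is filled.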

How the data were processed

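Poly(A) RNA was sequenced from 8 endometrial biopsies, from 5 µg of total RNA, with RNA integrity numbers of 8.3 to 9.2 (per the labels' protocols), with a kit that, as described there, does not mark strand. The authors deposited raw read counts per NCBI Gene ID (24942 IDs) and, for 14037 of them, scaled signal values. The submitters' processing notes name the trimmer Trimmomatic 0.32.2 and the aligner HISAT2 2.0.3. Build, annotation and counting tool: not given in the sources used here. Tested on the values, 100% of the deposited signal values equal CPM times a factor per library (relative tolerance 1e-06), and they were used for this check alone. There were 0 unused columns of sample values.

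Symbols came from a RefSeq table (assembly TB-T2T), matched by Gene ID for 21420 IDs (85.9%); no coordinates or sequences are given. In that table no gene overlaps ERBB2, HBEGF, BTC or EREG, while EGFR, ERBB3, TGFA, AREG and ERBB4 are overlapped by genes that have no row in the counts. The counts went into edgeR 4.0.16 under R 4.3.3 (filterByExpr, minimum count 10, 15342 genes kept; TMM; robust quasi-likelihood F-test with the mare as block), and the standard error is the log2 fold change divided by the root of F. The scripts were tested on simulated data. Alternatives used limma 3.58.1 and DESeq2 1.42.0, other scalings and filters, no block, and each mare left out. The series' design text states the pairing by mare; same-mare libraries deviated together (correlations across genes of 0.38 to 0.54, against at most -0.02 between mares). Every pair of libraries in a group differed by more than sampling noise (lowest chi-square per degree of freedom 26.3).

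Members, lists and tests were chosen with earlier results of these data known. Named were all members; per pathway list up to 4 called genes with the smallest p, or the 2 most abundant where none was called; and the 3 genes most correlated with each of the 2 members of smallest p. Some results that fall under this rule are not reported here.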

Additional observations from a re-analysis of the deposited data

Results flagged for a closer look

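In 65 groups of 4 libraries, for the members and the named pathway genes, the library farthest from the rest was compared with the range of its group, and 6 stood apart. Chance alone gives about 1 in 20 such groups, and 2 of the 6, both of EREG, follow from 0 counts in the other libraries, where any single read stands apart. NRG1 stood at 5.41 CPM in the pregnant library of mare 2, where the next highest pregnant library had 0.474 CPM. SDC4 stood at 149 CPM in the cyclic library of mare 3, above 106 CPM in the next, and at 119 CPM in the pregnant library of mare 2, below 148 CPM in the next. SPRED2 stood at 58.4 CPM in the cyclic library of mare 4, above 42.0 CPM in the next. EREG stood at 0.124 CPM in the cyclic library of mare 3 and at 0.0645 CPM in the pregnant library of mare 2, on 2 counts and 1 count, within what a count of 0 allows.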

How the results depend on the processing

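Under 12 alternatives, 269 of 336 values for 28 genes kept their direction and their side of the threshold. Of the others, 64 lost a call, 2 gained one (AREG) and 1 reversed (HBEGF, -0.20 without mare 4, within -0.20 to 0.65 on leaving out 1 mare). The 28 genes include NRG2, NRG4 and the tested members other than ERBB2, which were not called in the main test. Their values had no call to lose, so the 269 does not measure how firmly the calls held. Without the mare as replicate block the count of changed members went from 1 to 0, of pathway genes from 27 to 5 and of all genes from 2565 to 389, and no test of mares can be made. With 1 mare left out these counts were 0 to 1, 7 to 21 (7 without mare 1 and 14 without mare 4) and 1266 (without mare 1) to 2057. AREG took the place of ERBB2 as the 1 member called without mare 3 and with the likelihood ratio test. Members that differed between mares numbered 0 with library totals and in limma-voom, 3 in DESeq2 (HBEGF, EGFR and ERBB2) and 0 to 1 with a mare left out, HBEGF in place of EGFR without mare 4; all genes that differed between mares numbered 1103 (without mare 1) to 2049 with a mare left out, against 2435. The cause of these shifts was not tested. Fits with a mare left out also rest on fewer pairs. With library totals in place of TMM, 62.1% of called genes were higher in pregnancy against 51.0%, and 79.2% of called pathway genes against 59.3%; the medians of all genes stayed within 0.04 of 0 (log2). EREG and ERBB4 had 0 to 6 counts per library and did not enter the test.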
